A study of Mus musculus with 33 samples.

Results

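Collagens are the main structural proteins of the extracellular matrix, and each gene encodes 1 of the α chains that wind around each other into a triple helix. The collagen genes were taken by symbol: all protein-coding genes named Col, a type number, the letter a and a chain number. The deposited table held 44 of them among 48795 genes, of which 22095 were protein-coding. By class they were 11 fibrillar, 6 of the basement membrane type IV, 6 of the beaded filament type VI, 9 fibril-associated, 2 multiplexins, 4 transmembrane collagens and 6 others. Of the 44, 23 passed the filter on low values (FPKM, fragments per kilobase of exon scaled to the depth of the library, of at least 0.5 in at least 5 tumours), and 21 did not and are described apart.

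RNA was sequenced from 33 tumours of male FVB mice that had been given Myc-CaP cells under the skin of both flanks. Myc-CaP is a mouse line of prostate carcinoma in which the oncogene MYC drives growth. Treatment began when tumours reached 50 mm3 and lasted 3 weeks. The vehicle group (5 mice, 10 tumours) is labelled vehicle, and the ESK981 group (5 mice, 8 tumours) received 15 mg/kg of ESK981, a drug given by mouth that blocks several kinases and the endosomal lipid kinase PIKfyve. The anti-PD-1 group (5 mice, 7 tumours) received an injected antibody that blocks the T cell checkpoint receptor PD-1, at 200 µg per mouse, and the combination group (5 mice, 8 tumours) received both agents. The labels state the oral agent or its vehicle on 5 days a week and the antibody or its isotype control 3 times a week, as a pair of choices, and do not spell out the control agents of each group. All tumours come from 1 cell line implanted under the skin, so the collagen RNA measured can include that of host cells. The mouse was the replicate, numbered 1 to 5 within each group, and the numbers pair nothing across groups. Where a mouse had 2 tumours, L and R name the flank.

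Fibrillar collagens are made as procollagens mainly by fibroblasts, trimmed outside the cell and assembled into the cross-striated fibrils that give tissue its tensile strength. Type IV collagens form the sheet-like network of basement membranes, which in a tumour lie chiefly under endothelium and around pericytes. Type VI forms beaded microfilaments near cells, and fibril-associated collagens decorate the surface of fibrils. In carcinomas the fibrillar collagens are known for the dense stroma laid down by activated fibroblasts.

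Sequence upstream of the annotated start is shown for 4 fibrillar or anchoring collagens whose RNA was lower in ESK981 tumours. These stretches show letter matches to core motifs at any position before the starts, and not working elements. Each is 150 bases of RefSeq's GRCm38.p6 sequence ending at the base before the start, 5′ to 3′ on the gene's strand, in a window that holds no annotated exon. Capitals mark matches to 3 core motifs, each searched on both strands. The first is the TATA box with the letters TATAAA. The second is the box named after its letters CCAAT. The third is the GC box with the letters GGGCGG, which reads CCGCCC where it lies on the strand opposite the gene. No match overlapped one of another motif in these windows.
Col3a1, chr1:45311388-45311537, plus strand: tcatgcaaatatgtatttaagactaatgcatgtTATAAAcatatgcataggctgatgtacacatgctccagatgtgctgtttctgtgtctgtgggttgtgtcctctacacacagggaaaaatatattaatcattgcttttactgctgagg
Col5a1, chr2:27886275-27886424, plus strand: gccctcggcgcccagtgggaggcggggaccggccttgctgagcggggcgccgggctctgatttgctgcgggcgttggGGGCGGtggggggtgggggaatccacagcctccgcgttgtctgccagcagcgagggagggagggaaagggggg
Col5a3, chr9:20815068-20815217, minus strand: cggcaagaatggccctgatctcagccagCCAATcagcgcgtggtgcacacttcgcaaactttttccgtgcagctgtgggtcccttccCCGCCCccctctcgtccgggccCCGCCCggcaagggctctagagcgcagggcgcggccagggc
Col7a1, chr9:108953436-108953585, plus strand: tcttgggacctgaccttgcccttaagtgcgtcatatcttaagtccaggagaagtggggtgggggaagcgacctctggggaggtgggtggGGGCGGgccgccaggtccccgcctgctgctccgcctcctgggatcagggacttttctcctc
The Col3a1 window held a TATA box match 117 to 112 bases before the start and neither of the other motifs. The Col5a3 window held a CCAAT box match and 2 GC box matches, and the Col5a1 and Col7a1 windows held 1 GC box match each. Of the tested collagens, 18 had an entry in the RefSeq promoter table. In their 150-base windows 2 of 18 held a TATA box match, 5 a CCAAT box match and 10 a GC box match, against 8.08%, 25.3% and 29.0% of the windows of 27025 genes. None of the 18 held a TATA box together with a CCAAT match (2.07% of all genes). Col1a1, Col2a1, Col4a3, Col5a2, Col9a3, Col12a1, Col14a1, Col22a1 and Col26a1 have no entry. A match is a run of letters and not a binding site shown by these data.

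Several facts of the whole data set bear on every comparison with vehicle. The vehicle tumours held 9.90e+06 to 1.84e+07 fragments and the treated tumours 1.13e+07 to 3.24e+07, as recovered from the FPKM. Of the 10 vehicle tumours, 9 were sequenced on 1 flow cell, whereas the 23 treated tumours and vehicle 5R were on another, so flow cell and treatment can be told apart through that 1 tumour alone. The labels also number the vehicle mice in a series apart from that of all treated mice, and do not say what the series mean. The mouse of vehicle 5R is in the vehicle series, so whatever goes with the series cannot be told apart from treatment. Vehicle 5R and anti-PD-1 4R stood apart from the other libraries, with the lowest depths and the most mitochondrial RNA (FPKM of 90856 and 52728 summed over 13 mitochondrial genes). Both also had the lowest Col4a1 of their groups (1.20 and 3.07 FPKM). Combination 5R stood apart by its ribosomal RNA, with 500377 FPKM summed over 3 genes known to collect ribosomal RNA reads. That sum ran from 127087 to 240279 FPKM in the vehicle tumours and from 15043 to 86387 in the ESK981 tumours, so the groups of the main comparison did not overlap in it. Its part in the differences between these groups was not tested. Among markers of epithelial tumour cells, Krt8 was expressed (26 ± 20.5 FPKM in vehicle mice, mean ± SD, n = 5), whereas Epcam, Cldn7, Krt18 and Cdh1 averaged at most 0.368 FPKM in any group, so the epithelial label rests on few of its defining markers. The RNA is that of whole tumours, in which fewer cells of a type and less RNA per cell cannot be told apart.

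The levels of the 44 collagen genes are set side by side in FPKM, which are scaled to the joined length of all annotated exons. That length can exceed the length of the RNA made, so the order of genes and the size of ratios between them depend on it. Col1a2 (12426 bases) held more fragments than Col3a1 (9816 bases), 138908 against 135255, yet lay below it in FPKM. Averaged over the 20 mice, the highest were the 2 chains of type I collagen and the type III chain: Col1a1 at 55.8 FPKM, Col3a1 at 22.7 and Col1a2 at 17.9. Next came Col5a1 (14.6), Col12a1 (12.3), Col4a1 (10.2), Col4a2 (8.08) and Col5a2 (6.69). The lowest collagen that passed the filter was Col6a5 at 0.348 FPKM, with 6 tumours at or above 0.5, most of them vehicle tumours. The members just outside the filter were Col11a1 and Col8a2, with 2 such tumours each. Col4a1 lay above Col4a2 in each of the 20 mice (ratios of 1.08 to 1.45). The order of Col5a2 and Col4a5 (6.58) changed from mouse to mouse.

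**Figure D1:**
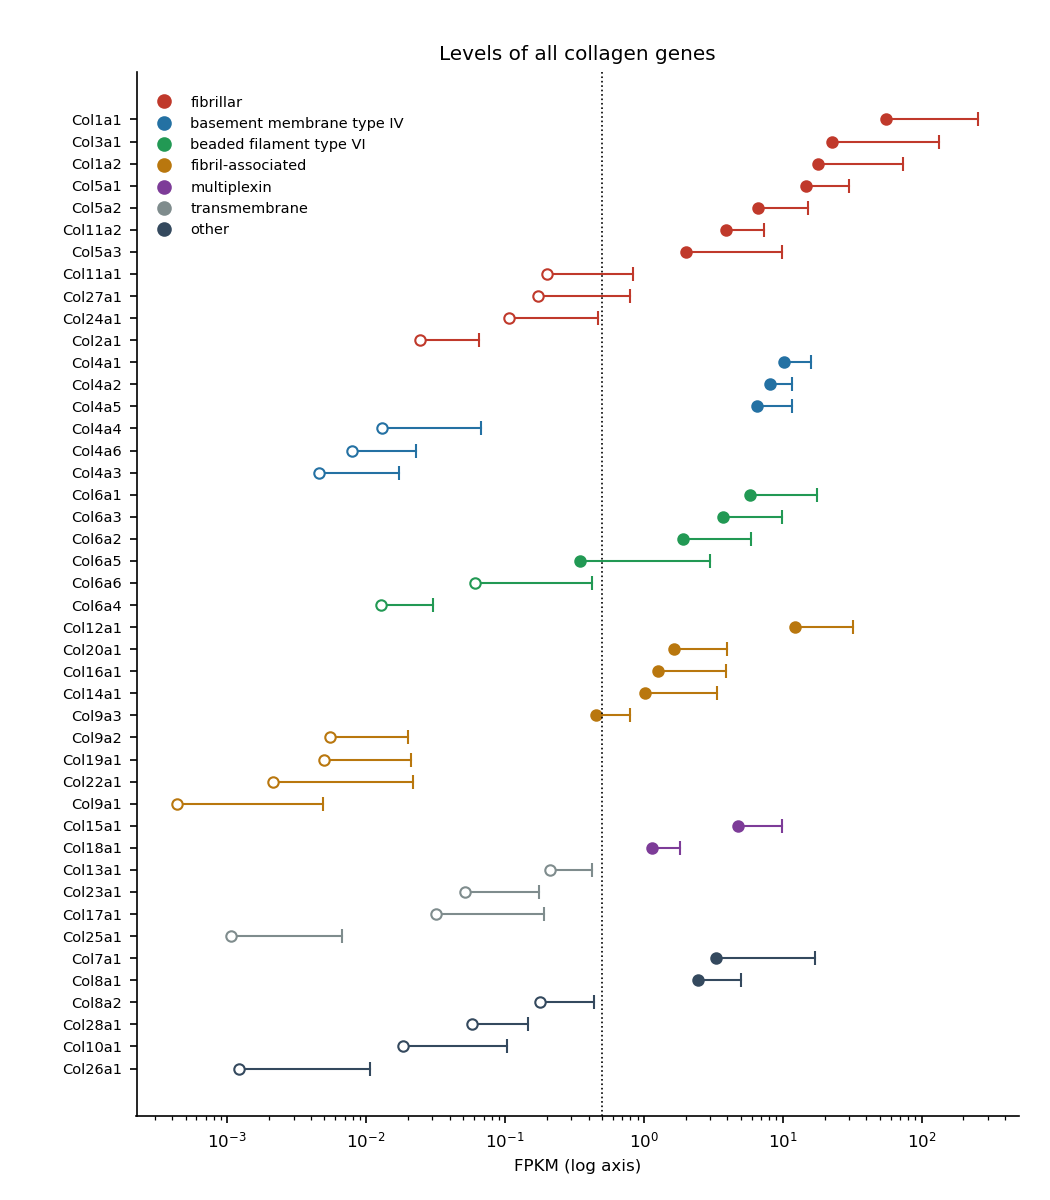
Mean FPKM over 20 mice (points, log axis) of each of the 44 collagen genes, ordered by class and level, with a line to the highest mouse; filled points passed the filter and the dotted line marks 0.5 FPKM. Col1a1 lies highest at 55.8 FPKM and its highest mouse reached 257, and all 4 transmembrane collagens lie below the line.

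ESK981 alone was associated with less RNA of fibrillar collagens. The 1 call in the other direction, of a type IV chain, was lost when the libraries were rescaled. Of the 23 collagens tested, 8 fell and 1 rose against vehicle by limma (Benjamini-Hochberg adjusted p under 0.05 over all genes), where 5.43% of all 15846 genes tested were called lower and 8.95% higher. The 8 were Col1a1, Col1a2, Col3a1, Col5a1 and Col5a3 of the fibrillar class, Col6a1 of type VI, the fibril-associated Col16a1 and Col7a1 of the anchoring fibrils, and Col4a5 was the one that rose. In the averaged log values that were tested, the mice of the groups did not overlap for 6 collagens, all lower with ESK981 (4.05% of all genes lay so in that direction), and for none in the other, where 11.5% of all genes did. The 6 were Col1a1, Col3a1, Col5a1, Col6a1, Col16a1 and Col6a5, and in the mean FPKM printed here Col7a1 did not overlap either. Col6a5 passed the filter mainly through vehicle tumours, with at most 0.157 FPKM in any ESK981 tumour, so its place among the 6 is not support. In all, 18 of the 23 log2 fold changes lay below 0, against 37.6% of all genes. Their median was −0.47, against 0.11 over all genes.

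Scaling and single mice moved these counts. Median-of-ratios scaling shifted the median of all genes from 0.11 to 0.01 and the split of all calls from 1418 higher and 860 lower to 2207 and 2210. Rescaling to the sum of nuclear protein-coding genes shifted it to −0.02, with 1817 higher and 2349 lower. Under each of them 11 collagens were called lower and none higher, so that Col4a5 lost its call (adjusted p = 0.104 and 0.108). Among the 11 were Col6a5 and Col9a3, which passed the filter mainly through vehicle tumours. In ESK981 tumours they reached at most 0.157 and 0.438 FPKM, so their calls are not support for a fall. The count also rested on single mice: 3 collagens were called without vehicle mouse 2, 5 without vehicle mouse 3, 4 without ESK981 mouse 1 and 5 without ESK981 mouse 4. Col1a1, Col5a3 and Col16a1 were the 3 called without vehicle mouse 2, and these 3 were called whichever 1 of the 20 mice was left out. Leaving out the tumours of low depth or much ribosomal RNA (5R of vehicle, 4R of anti-PD-1 and 5R of the combination) gave 12, 11 lower and Col4a5 higher. Col6a5 and Col9a3 were again among the 11. Leaving out ESK981 tumours 1R and 2R gave 6, all lower. As combination mouse 5 and ESK981 mouse 2 had 1 tumour each, these fits also lost those mice. With flow cell as a term, which rests on vehicle 5R, 5 were called: Col1a1 and Col16a1 lower and Col4a1, Col4a2 and Col8a1 higher.

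Type I collagen, the main component of fibrils, is built from the chains of Col1a1 and Col1a2. In vehicle mice 1 to 5, Col1a1 (chromosome 11, 94936224 to 94953042, plus strand, GRCm38) was at 93.8, 257, 69.5, 39.3 and 69.3 FPKM, and in ESK981 mice at 17.3, 20.4, 23.4, 26.3 and 28. Every ESK981 mouse lay below every vehicle mouse, and vehicle mouse 2 stood far above the other four. On the log2(FPKM + 0.5) scale, used for all fold changes here, Col1a1 fell 3.49-fold (log2 fold change −1.80 ± 0.42 SE, limma adjusted p = 0.0108) and without vehicle mouse 2 the log2 fold change was −1.41 (adjusted p = 0.0326). Col1a1 was at 53, 36.9, 43.8, 55.1 and 33.8 FPKM in anti-PD-1 mice and at 21.3, 92.6, 90.9, 25 and 20.4 in combination mice. All anti-PD-1 mice lay above the ESK981 mice, and 3 of the 5 lay within the vehicle range, while combination mice fell into 2 high (mice 2 and 3) and 3 near the ESK981 range.

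The second chain, Col1a2 (chromosome 6, 4504814 to 4541544, plus strand), was at 29.6, 73.7, 18.7, 11.4 and 15.6 FPKM in vehicle mice and at 7.88, 9.15, 7.64, 9.82 and 11.5 in ESK981 mice. The groups met at vehicle mouse 4 and ESK981 mouse 5, and Col1a2 fell 2.39-fold (−1.26 ± 0.41, adjusted p = 0.0451), a call held in 9 of the 20 fits that each left out 1 mouse. In anti-PD-1 mice it was at 18.2, 12.7, 16.2, 18.1 and 12.5 FPKM and in combination mice at 7.06, 30.5, 30.6, 9.38 and 7.10. The ratio of Col1a1 to Col1a2 mean FPKM ran from 3.17 to 4.45 in vehicle mice, 2.19 to 3.06 in ESK981 mice, 2.71 to 3.04 with anti-PD-1 and 2.66 to 3.04 with the combination. The ratios of vehicle mice lay above all those of treated mice. The scaling of a library cancels in the ratio of a single tumour, whereas it sets the weights of tumours averaged in a mouse. In single tumours the groups overlapped, with 3.08 to 4.63 in vehicle, 2.04 to 3.24 with ESK981 and 2.63 to 3.36 with anti-PD-1. The ratio was chosen after its values were seen and was not tested, and in vehicle 5R, the vehicle tumour on the second flow cell, it was 4.63.

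Col3a1 (chromosome 1, 45311538 to 45349706, plus strand) encodes type III collagen, which forms thin fibrils together with type I. It was at 39.2, 134, 27.5, 11.8 and 26 FPKM in vehicle mice and at 7.05, 10.7, 7.32, 8.41 and 9.65 in ESK981 mice. The groups did not overlap, and Col3a1 fell 3.37-fold (−1.75 ± 0.49, adjusted p = 0.0246; 0.0681 without vehicle mouse 2). In anti-PD-1 mice Col3a1 was at 12.7, 12.7, 14.6, 28.4 and 10.7 FPKM and in combination mice at 7.70, 35.4, 36.1, 8.66 and 6.01, with mouse 4 of the former and mice 2 and 3 of the latter high. In anti-PD-1 mouse 4 the tumour 4R, whose library stands apart, was at 44.2 FPKM and 4L at 12.5.

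The type V chains build the core on which type I fibrils start. Col5a1 (chromosome 2, 27886425 to 28039514, plus strand) was at 17.5, 29.8, 14.6, 16.2 and 16.8 FPKM in vehicle mice and at 8.48, 8.30, 11.4, 10.3 and 11.6 in ESK981 mice, without overlap. It fell 1.79-fold (−0.84 ± 0.22, adjusted p = 0.0176; 0.0574 without vehicle mouse 2). In anti-PD-1 mice Col5a1 was at 16.5, 17.6, 15.4, 19.3 and 11.5 FPKM and in combination mice at 12, 19.5, 18.2, 9.56 and 8.35. Col5a3 (chromosome 9, 20770050 to 20815067, minus strand), a minor type V chain, was at 3.23, 9.81, 2.94, 1.15 and 2.29 FPKM in vehicle mice and 0.684, 0.620, 1.37, 0.927 and 1.28 in ESK981 mice, overlapping only at vehicle mouse 4. It fell 2.32-fold (−1.21 ± 0.32, adjusted p = 0.0179). In anti-PD-1 mice Col5a3 was at 1.95, 1.53, 1.54, 2.01 and 1.15 FPKM and in combination mice at 0.955, 2.32, 2.38, 1.05 and 1.05, the latter again highest in mice 2 and 3.

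The third type V chain, Col5a2, did not pass the test. It was at 8.73, 15.1, 5.16, 4.59 and 3.77 FPKM in vehicle mice and at 4.35, 4.44, 3.43, 4.77 and 5.99 in ESK981 mice, groups that overlapped widely. Its log2 fold change was −0.47 ± 0.34 (95% interval −1.18 to 0.23, adjusted p = 0.352). In anti-PD-1 mice Col5a2 was at 9.78, 7.15, 7.55, 7.86 and 6.27 FPKM and in combination mice at 3.32, 9.31, 14.5, 4.44 and 3.34. Col5a2 lies next to Col3a1 on chromosome 1, on the other strand (45374321 to 45503282). Col11a2, the seventh fibrillar gene tested and best known from cartilage, averaged 4.69 ± 0.873 FPKM in vehicle mice and 2.86 ± 0.484 in ESK981 mice (−0.58 ± 0.22, limma adjusted p = 0.0792). All 7 fibrillar log2 fold changes lay below 0 (median −1.21), and 5 of the 7 were called.

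**Figure D2:**
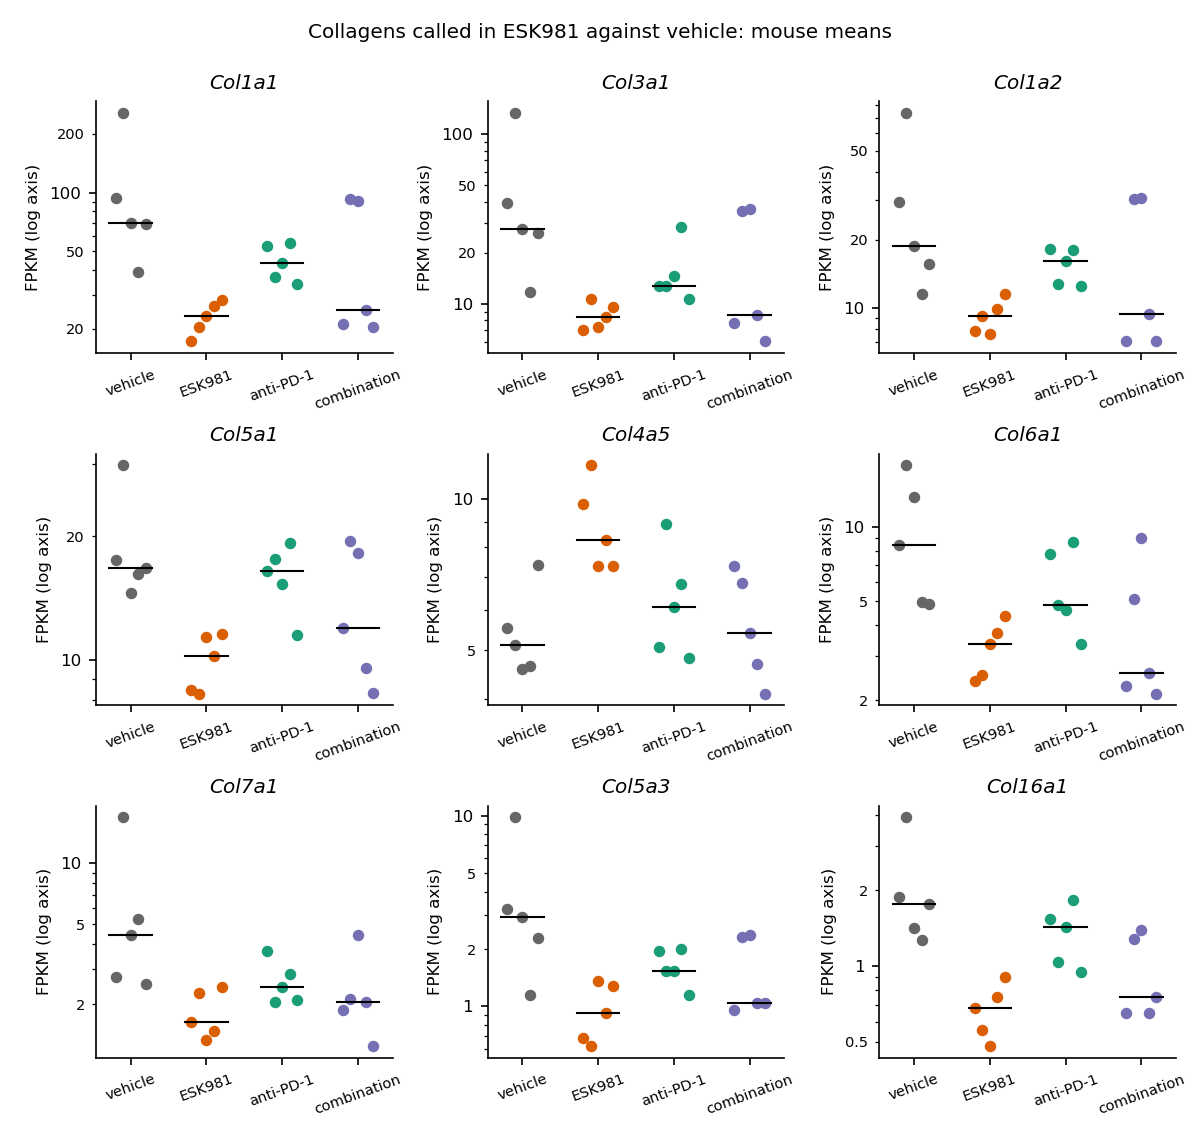
FPKM of each mouse (points, log axis) in the 4 groups for the 9 collagens called in ESK981 against vehicle, with black lines at the group medians. For Col1a1 the ESK981 mice sit between 17.3 and 28 and the vehicle mice between 39.3 and 257, and the combination mice split into 3 low and 2 high.

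Type IV genes, in contrast, had log2 fold changes above 0 with ESK981, and 1 of the 3 tested was called higher. Of all genes tested, 37.6% lay below 0 and 8.95% were called higher. The type IV genes sit in head-to-head pairs: Col4a1 (chromosome 8, 11198423 to 11312826, minus strand) and Col4a2 (chromosome 8, 11312805 to 11449287, plus strand) overlap at their starts on opposite strands, and Col4a3 with Col4a4 and Col4a5 with Col4a6 are neighbours on opposite strands likewise. The setting for strand in the authors' counting is not given in the sources used here, so reads over shared exons cannot be told apart, but the overlap with other genes covered at most 6.07% of the exon bases of any tested collagen (Col9a3, with Tcfl5), 2.5% for Col5a1 and 0.295% for Col4a1. The chains of Col4a1 and Col4a2 form the trimer found in nearly all basement membranes. Col4a1 was at 13.1, 11, 6.49, 9.10 and 3.27 FPKM in vehicle mice and at 11.7, 9.54, 9.53, 12.6 and 16 in ESK981 mice, and the groups overlapped. Its log2 fold change was 0.61 ± 0.31 (95% interval −0.04 to 1.25, adjusted p = 0.181), and 0.43 (0.126) without the 3 tumours of low depth or much ribosomal RNA. In anti-PD-1 mice Col4a1 was at 12.8, 9.99, 11.2, 7.97 and 9.78 FPKM and in combination mice at 8.30, 12.8, 13.4, 9.33 and 5.25. Vehicle mouse 5 held the lowest tumour, 5R, at 1.20 FPKM against 5.33 in 5L.

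Col4a2 was at 10.8, 8.47, 5.99, 7.10 and 2.74 FPKM in vehicle mice, 8.08, 7.23, 6.92, 9.12 and 11 in ESK981 mice, 11.7, 8.60, 9.18, 6.61 and 8.34 in anti-PD-1 mice and 6.32, 10.1, 11.3, 7.61 and 4.28 in combination mice. Within each group its order of mice was that of its partner. The Col4a1 to Col4a2 ratio ran from 1.08 to 1.30 in vehicle mice and from 1.32 to 1.45 in ESK981 mice. It was 1.09 to 1.22 with anti-PD-1 and 1.19 to 1.31 with the combination. The ESK981 ratios thus lay above those of all other mice, a difference that was not tested. The log2 fold change of Col4a2 was 0.44 ± 0.32 (95% interval −0.23 to 1.11, adjusted p = 0.364). With flow cell as a term both genes were called higher with ESK981 (Col4a1 2.71, adjusted p = 0.000995, and Col4a2 2.93, 0.000770), in a fit that takes the low values of vehicle 5R as its only link.

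Col4a5 (chromosome X, 141475385 to 141689234, plus strand) encodes a chain of the basement membrane networks of kidney, skin and smooth muscle. It was at 5.53, 5.13, 4.58, 4.65 and 7.38 FPKM in vehicle mice and at 9.75, 11.7, 7.33, 8.26 and 7.34 in ESK981 mice, and vehicle mouse 5 overlapped the ESK981 range. Col4a5 rose 1.54-fold (0.62 ± 0.18, adjusted p = 0.0299), a call held in 14 of 20 fits without 1 mouse, lost under both other scalings and lost without ESK981 tumours 1R and 2R (0.31, adjusted p = 0.305). In anti-PD-1 mice it was at 5.07, 8.90, 6.10, 6.76 and 4.81 FPKM and in combination mice at 7.36, 6.80, 5.42, 4.68 and 4.09. The highest tumours of all were ESK981 1R at 15.0 FPKM and 2R at 11.7, while 1L of the same mouse was at 4.47. Its neighbour Col4a6 averaged 0.00792 FPKM, and Col4a3 and Col4a4 0.00455 and 0.0130.

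The make-up of collagen RNA was also described as shares, which in a single tumour do not depend on the scaling of its library. In mice with 2 tumours the FPKM were averaged first, so the scaling sets the weight of each tumour. Type IV genes made up 27.1, 24.6, 23.1, 24.4 and 24.2% of the summed collagen FPKM in ESK981 mice and 10.5, 3.87, 8.52, 13.2 and 7.75% in vehicle mice. The 2 groups lay apart, and no mouse of the other treated groups reached the ESK981 range, with 14.1, 17.3, 15.4, 10.4 and 16.6% for anti-PD-1 and 22, 11, 10.01, 19.3 and 16.8% for the combination. Fibrillar genes made up 45.3, 50.1, 56.3, 51.5 and 49.8% in ESK981 mice and 70.6, 82.1, 71.6, 56.5 and 79.5% in vehicle mice. A share also rises where the other collagens fall. The summed FPKM of type IV genes overlapped between these groups (13.4 to 29.4 in vehicle and 23.8 to 34.4 in ESK981 mice, means 21.1 and 29.2). The fibrillar sums averaged 219 and 59.9 FPKM, and those of all collagens 290 and 119. The ratio of Col1a1 to Col4a1 was 7.18, 23.3, 10.7, 4.32 and 21.2 in vehicle mice and 1.47, 2.14, 2.45, 2.09 and 1.75 in ESK981 mice, with 3.46 to 6.91 for anti-PD-1 and 2.56 to 7.22 for the combination. These shares and the ratio were looked at after the single genes were known and carry no test. In the single tumour 5R the ratio was 75.6, the highest of all 33.

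**Figure D3:**
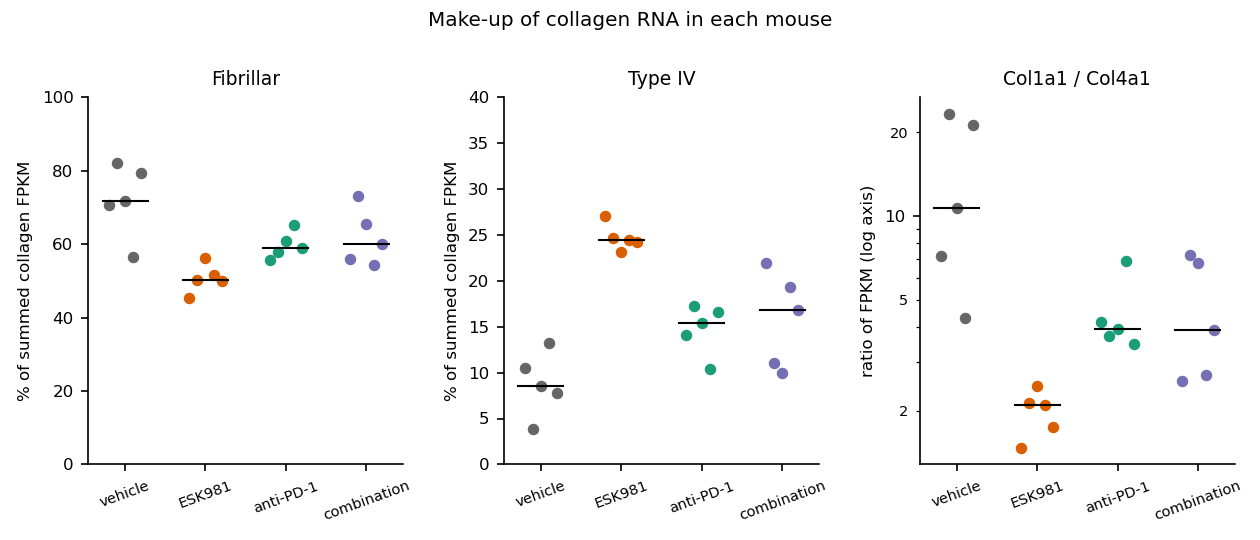
Share of the summed FPKM of the 44 collagen genes taken by fibrillar (left) and type IV genes (middle), and the Col1a1 to Col4a1 ratio (right, log axis), for each mouse (points) with group medians (lines). ESK981 mice hold 23.1 to 27.1% of type IV and vehicle mice 3.87 to 13.2%.

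Of the type VI genes, 1 of 4 tested fell. Col6a1 (chromosome 10, 76708792 to 76726168, minus strand), the chain needed for every type VI trimer, was at 8.42, 17.8, 13.3, 5.00 and 4.88 FPKM in vehicle mice and at 2.39, 2.51, 3.35, 3.71 and 4.35 in ESK981 mice, without overlap. It fell 2.31-fold (−1.21 ± 0.34, adjusted p = 0.0261; 0.0784 without vehicle mouse 2). In anti-PD-1 mice Col6a1 was at 7.78, 4.83, 4.62, 8.70 and 3.37 FPKM and in combination mice at 2.28, 5.13, 8.99, 2.58 and 2.12. Vehicle mouse 3 differed between its flanks, with 21 FPKM in 3R and 5.55 in 3L. Its partners Col6a2 (2.79 ± 1.89 FPKM in vehicle and 1.32 ± 0.312 in ESK981 mice) and Col6a3 (4.73 ± 3.16 and 2.93 ± 1.03) did not pass (adjusted p = 0.140 and 0.376). Col6a5 was low, and of its 1869 fragments in 33 tumours 680 lay in vehicle 2R.

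Among the fibril-associated genes, Col16a1 (chromosome 4, 130047840 to 130099283, plus strand) fell and had the smallest adjusted p of all collagens. It was at 1.89, 3.90, 1.42, 1.27 and 1.76 FPKM in vehicle mice and at 0.682, 0.558, 0.480, 0.753 and 0.901 in ESK981 mice. The groups did not overlap, and the fall was 1.99-fold (−0.99 ± 0.22, adjusted p = 0.00746), called in all 32 alternative fits. In anti-PD-1 mice Col16a1 was at 1.54, 1.04, 1.43, 1.83 and 0.949 FPKM and in combination mice at 0.649, 1.29, 1.39, 0.648 and 0.749. Its median tumour held 155 fragments, so its values are less precise than those of Col1a1 (4784). Col12a1, a long chain that bridges fibrils and the most abundant of the class, was at 14.2, 11, 3.61, 23 and 3.85 FPKM in vehicle mice, 10.5, 11.1, 4.84, 8.99 and 10.8 in ESK981 mice, 25.9, 13.9, 10.01, 17.1 and 10.8 in anti-PD-1 mice and 6.43, 9.80, 32.2, 13.4 and 4.39 in combination mice. Its order of mice was unlike that of Col1a1: vehicle mouse 4, the lowest of its group in Col1a1, was the highest in Col12a1. Its log2 fold change with ESK981 was 0.13 ± 0.45 (95% interval −0.80 to 1.06). Col14a1, Col20a1 and Col9a3 averaged 0.315 to 1.98 FPKM in the 4 groups, and none passed the test.

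Col7a1 (chromosome 9, 108953586 to 108984875, plus strand), which encodes the anchoring fibrils below epithelia, was at 2.74, 17, 4.43, 5.28 and 2.51 FPKM in vehicle mice and 1.63, 2.27, 1.32, 1.47 and 2.43 in ESK981 mice. It fell 2.07-fold (−1.05 ± 0.30, adjusted p = 0.0266; 0.0708 without vehicle mouse 2, whose tumour 2R was at 30.00 and 2L at 3.91). In anti-PD-1 mice Col7a1 was at 3.67, 2.06, 2.44, 2.82 and 2.10 FPKM and in combination mice at 1.86, 2.11, 4.42, 2.05 and 1.24. With flow cell as a term its log2 fold change was 0.027. Col8a1, a short-chain collagen of vessel walls, averaged 1.58 ± 0.840 FPKM in vehicle and 2.72 ± 0.900 in ESK981 mice (0.69 ± 0.32, adjusted p = 0.139). Of the multiplexins, whose ends yield endostatin-like fragments, Col15a1 was at 8.10, 9.81, 4.17, 3.66 and 1.99 FPKM in vehicle mice, 3.10, 1.76, 3.35, 3.97 and 4.87 in ESK981 mice, 6.56, 4.95, 7.59, 3.83 and 5.02 in anti-PD-1 mice and 2.87, 8.73, 5.25, 2.14 and 3.63 in combination mice. The groups overlapped, and neither Col15a1 (−0.46 ± 0.37) nor Col18a1 (−0.28 ± 0.18) passed with ESK981 (adjusted p = 0.412 and 0.289).

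Markers of other cells moved with these differences, and their part in them was not tested. With ESK981, 5.43% of all genes tested were called lower and 8.95% higher, and 37.6% lay below 0. Of 9 tested fibroblast markers 3 fell with ESK981: Pdpn (−1.84 ± 0.35, adjusted p = 0.00369), Dpt (−2.29 ± 0.45, 0.00463) and Dcn (−1.39 ± 0.45, 0.0435), and 8 of 9 lay below 0. Pdpn is carried by some macrophages and lymphatic endothelium too. Pdgfra, a defining fibroblast receptor, was at 2.33 ± 1.24 FPKM in vehicle and 2.26 ± 0.449 in ESK981 mice (0.06 ± 0.25, 0.902). The summed FPKM of the 10 fibroblast markers ran from 12.3 to 61.6 in vehicle mice, 6.99 to 10.2 in ESK981 mice, 12.3 to 45.3 in anti-PD-1 mice and 6.71 to 32.6 in combination mice. Vehicle mouse 2, the highest of its group in 16 of the 23 collagens, had the 61.6, and it also had the highest sum of 6 skeletal muscle markers (193 against 8.61 to 44.9 in the other vehicle mice). Combination mice 2 and 3, which were both among the top pair of their group in 21 of the 23 collagens, had fibroblast sums of 21.4 and 32.6 against 6.71 to 10.2 in the other combination mice. The 6 macrophage markers split the same mice, with sums of 172 and 135 against 57.5 to 64.2. Vehicle mouse 2 was also the highest of its group in the sums of pericyte markers (18.6 against 2.36 to 8.74) and of macrophage markers (182 against 86.7 to 161). No fibroblast marker was at 0 throughout.

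In the same comparison, where 8.95% of all genes were called higher and 5.43% lower, 3 of 6 tested endothelial markers rose (Cdh5 1.17 ± 0.26, adjusted p = 0.00822; Emcn 0.51 ± 0.15, 0.0312; Esam 0.63 ± 0.20, 0.0393), with sums of 7 markers of 2.41 to 7.71 FPKM in vehicle and 7.40 to 11.4 in ESK981 mice. Emcn was low, at 0.269 ± 0.123 FPKM in vehicle and 0.581 ± 0.0989 in ESK981 mice. All markers are given under the main scaling only, in which the median of all genes was 0.11. Of 6 pericyte markers 2 rose (Rgs5 1.06 ± 0.27 and Abcc9 0.76 ± 0.19, both at adjusted p = 0.0160), while the other 4 lay below 0 (median of the 6 −0.17, lowest −0.75). Pdgfrb, the pericyte and fibroblast receptor, was at −0.24 ± 0.29 (0.594). Of 6 macrophage markers 3 fell (C1qa −1.03 ± 0.30, Csf1r −0.96 ± 0.32 and Cd68 −0.85 ± 0.24; adjusted p = 0.0279, 0.0497 and 0.0241). The one tested adipocyte marker of 5, Fabp4, which endothelium also expresses, rose (0.84 ± 0.27, 0.0418). No marker of skeletal muscle, keratinocytes, cartilage and bone or Schwann cells was called (6, 2, 1 and 1 tested).

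The genes that process and bind collagen were mostly not called with ESK981, where 5.43% of all genes tested were called lower and 8.95% higher. None of 17 tested genes of prolyl and lysyl modification and folding was called with ESK981 (median log2 fold change −0.11), among them P4ha1, a prolyl hydroxylase subunit (26 ± 7.32 FPKM in vehicle and 22.8 ± 4.23 in ESK981 mice; −0.11 ± 0.21), Plod2, a lysyl hydroxylase (−0.03 ± 0.25), and Serpinh1, the collagen chaperone HSP47 (6.91 ± 4.33 and 4.31 ± 1.08; −0.44 ± 0.29, adjusted p = 0.298). None of 8 genes of propeptide removal and crosslinking was called (median −0.24), including the crosslinking oxidases Lox (−0.27 ± 0.32) and Loxl2 (0.02 ± 0.25) and the proteinase enhancer Pcolce (−0.09 ± 0.14). Of 15 fibril-binding matrix genes 2 fell, the proteoglycan Dcn and Dpt, while Sparc (−0.24 ± 0.21) and Fn1 (202 ± 35.5 and 250.5 ± 47 FPKM; 0.34 ± 0.23, 0.326) were not called. Fn1 encodes fibronectin and had a higher mean than any collagen in each group, although Col1a1 in vehicle mouse 2 (257 FPKM) exceeded the highest vehicle mouse for Fn1 (246).

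None of 13 tested genes of other basement membrane components was called with ESK981 (median −0.01), among them Hspg2, perlecan (−0.25 ± 0.27), the laminin chain Lama4 (0.06 ± 0.20) and nidogen, Nid1 (−0.08 ± 0.27). None of 7 collagen receptors was called, with Ddr2 at 0.12 ± 0.33. Of 12 genes of TGF-β signalling, a main inducer of fibrillar collagens, 1 rose, where 8.95% of all genes did. It was the ligand Tgfb3 (8.37 ± 0.720 to 13.4 ± 2.85 FPKM; 0.60 ± 0.14, adjusted p = 0.0118). Its relative Tgfb1 (−0.28 ± 0.15, 0.222) and the target Acta2, the actin of myofibroblasts and vessel walls (0.04 ± 0.38), were not called. In the other 5 comparisons no gene of these 6 lists was called.

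**Figure D4:**
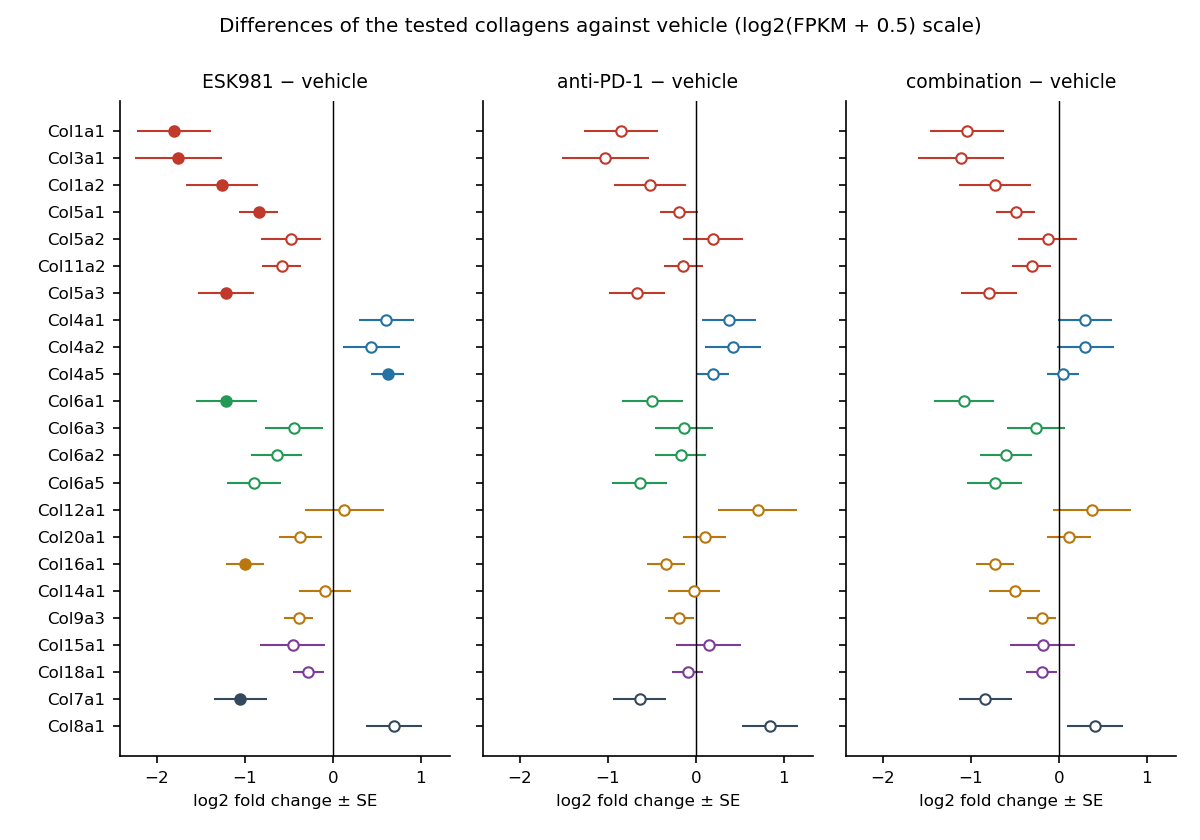
Log2 fold change ± SE (x axis, log2(FPKM + 0.5) scale) of the 23 tested collagens against vehicle, in class order, for ESK981, anti-PD-1 and the combination; filled points were called at an adjusted p under 0.05. All 7 fibrillar points lie below 0 with ESK981 and with the combination, and filled points are in the ESK981 panel only, where 9 collagens were called.

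Anti-PD-1 alone gave no called collagen by limma, where 0.783% of all genes tested (124) were called in either direction. At an unadjusted p under 0.05 there were 4 of 23, and 13.2% of all genes. Of the 23 log2 fold changes 15 lay below 0 (median −0.14; 0.13 over all genes), and the mice of the groups overlapped for all 23. Col1a1 was at −0.85 ± 0.42 (95% interval −1.73 to 0.03, adjusted p = 0.397) and Col3a1 at −1.03 ± 0.49 (95% interval −2.06 to −0.00221, adjusted p = 0.378). The smallest adjusted p was that of Col8a1, which averaged 3.28 ± 0.765 FPKM against 1.58 ± 0.840 in vehicle mice (0.84 ± 0.32, adjusted p = 0.236). With the 3 tumours of low depth or much ribosomal RNA left out (5R of vehicle, 4R of anti-PD-1 and 5R of the combination), Col8a1 (0.99, adjusted p = 0.0368) and Col6a5 (−0.91, 0.0407) were called. The type IV chains Col4a1 (0.38 ± 0.31) and Col4a2 (0.42 ± 0.32) were not. Col6a5 had passed the filter mainly through vehicle tumours.

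The combination also gave no called collagen against the same vehicle mice, where 0.606% of all genes (96) were called. At an unadjusted p under 0.05 there were 8 of 23, and 12.4% of all genes. The comparisons with vehicle share its 5 mice. Of the 23 values 17 lay below 0 (median −0.31; 0.03 over all genes). Col1a1 averaged 50.0 ± 38.1 FPKM against 106 ± 86.6 in vehicle mice (−1.05 ± 0.42, 95% interval −1.92 to −0.17, adjusted p = 0.313). The group was split: mice 1, 4 and 5 lay at 20.4 to 25 FPKM, below every vehicle mouse, and mice 2 and 3 at 92.6 and 90.9. Col16a1 (−0.73 ± 0.22, adjusted p = 0.141) and Col6a1 (−1.08 ± 0.34, 0.177) had the smallest adjusted p. Col4a5 averaged 5.67 ± 1.38 FPKM, close to the 5.45 ± 1.14 of vehicle mice (0.05 ± 0.18, 95% interval −0.33 to 0.43).

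The test of whether the ESK981 difference was another with anti-PD-1 than without it, the interaction, called no collagen, where 0.0252% of all genes (4) were called. At an unadjusted p under 0.05 there were 5 of 23, and 18.2% of all genes. The median interaction value was 0.38 for the collagens and −0.22 for all genes. All 7 fibrillar values lay above 0, with Col1a1 at 1.61 ± 0.60 (95% interval 0.37 to 2.85, adjusted p = 0.186) and Col3a1 at 1.67 ± 0.70 (adjusted p = 0.223). The 3 type IV values lay below 0, as did 73.6% of all genes, with Col4a5 at −0.77 ± 0.26 (adjusted p = 0.165). So the calls with ESK981 alone and their absence with the combination do not show that the 2 differ. Directly against ESK981, the combination gave 0 collagens called and 1, Col4a5, at an unadjusted p under 0.05 (−0.57 ± 0.18, adjusted p = 0.507), with 0% of all genes called and 7.74% at an unadjusted p under 0.05. Col1a1 was at 0.76 ± 0.42 there (95% interval −0.12 to 1.64). Against anti-PD-1 it gave 0 collagens at either threshold, again with 0% of all genes called and 5.94% at an unadjusted p under 0.05, and Col1a1 was at −0.19 ± 0.42 (−1.07 to 0.69).

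Single tumours showed how far collagen levels varied within a mouse. In the 13 mice with 2 tumours, the higher tumour exceeded the lower by a median of 1.52-fold for Col1a1, 1.84-fold for Col3a1, 1.24-fold for Col4a1 and 1.11-fold for Col5a1. Col1a1 was at 158 and 355 FPKM in the tumours of vehicle mouse 2, at 41.9 and 146 in those of vehicle mouse 1 and at 49.3 and 133 in those of combination mouse 3. The tumours of ESK981 mice lay between 14.3 and 32.5 FPKM, just reaching the lowest vehicle tumour, 4R at 31.1. Vehicle 5R, sequenced with the treated tumours, was at 91 FPKM, above all 8 ESK981 tumours. For Col3a1 and Col5a1 it was at 37.1 and 16 FPKM, also above all ESK981 tumours (5.27 to 10.7 and 8.29 to 12.4), and it lay above them too for Col1a2, Col5a3 and Col16a1. For Col6a1 (4.15 against 2.27 to 4.38) and Col7a1 (1.61 against 1.25 to 2.77) it lay within the range of the ESK981 tumours. So it did for Col4a5, the collagen called higher (7.25 against 4.47 to 15.0). Vehicle 5R is 1 library, with the lowest depth and the most mitochondrial RNA of all, and its mouse is in the number series of the vehicle mice.

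**Figure D5:**
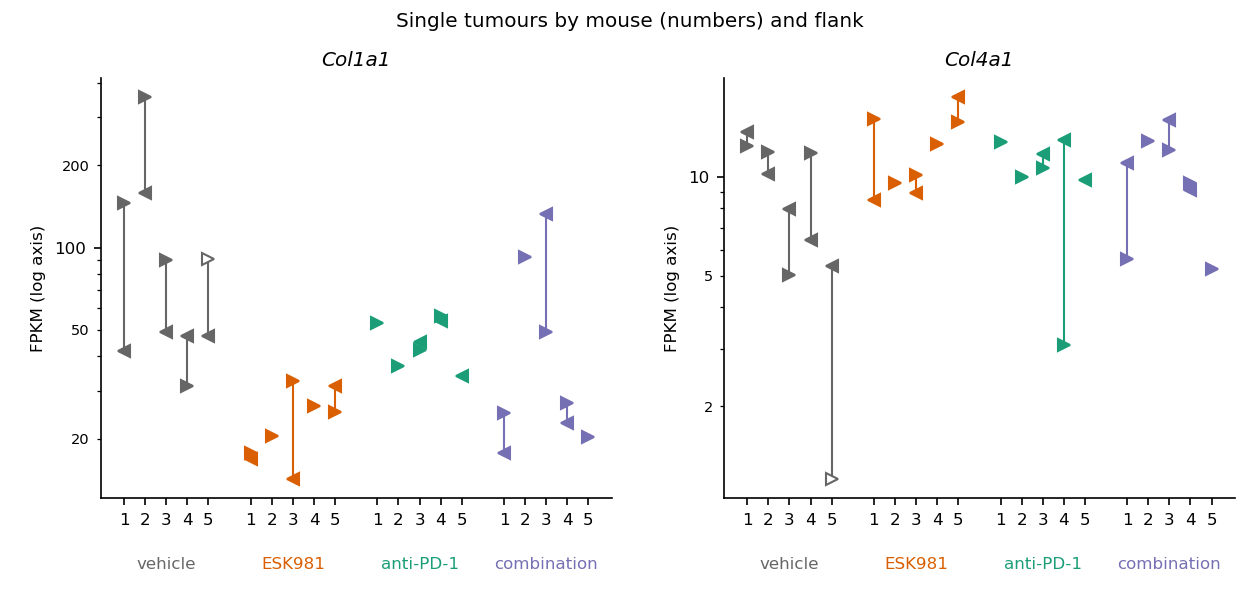
FPKM of Col1a1 and Col4a1 (log axes) in each of the 33 tumours, by mouse number and group, with left-pointing and right-pointing triangles for the left and right flank and a line joining the tumours of a mouse; the open triangle is vehicle 5R. For Col1a1 that tumour lies at 91, above the ESK981 tumours, and for Col4a1 at 1.20, the lowest of all.

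The 21 collagens that did not pass the filter averaged 0.000431 to 0.211 FPKM over the mice and held 2 to 1821 fragments each in all 33 tumours together, 11 of them fewer than 100. They were the fibrillar Col2a1, Col11a1, Col24a1 and Col27a1, the type IV chains Col4a3, Col4a4 and Col4a6, Col6a4 and Col6a6 of type VI, and the fibril-associated Col9a1, Col9a2, Col19a1 and Col22a1. All 4 transmembrane collagens (Col13a1, Col17a1, Col23a1 and Col25a1) and Col8a2, Col10a1, Col26a1 and Col28a1 of the remaining class were also among them. Col13a1, found at cell adhesion sites and the highest transmembrane member, was at 0.291, 0.390, 0.258, 0.193 and 0.0863 FPKM in vehicle mice and 0.0670, 0.0629, 0.141, 0.0705 and 0.0777 in ESK981 mice. It was at 0.335, 0.377, 0.261, 0.261 and 0.233 in anti-PD-1 mice and 0.171, 0.427, 0.302, 0.0838 and 0.134 in combination mice, so that the ESK981 group was the lowest by its mean. Col11a1 averaged 0.402 ± 0.294 FPKM in ESK981 mice against 0.1001 ± 0.0769 in vehicle mice, and Col8a2 0.284 ± 0.132 against 0.115 ± 0.0936. ESK981 tumours 1R and 2R were at 0.900 and 0.838 FPKM for Col11a1, the other ESK981 tumours at 0.291 or less and vehicle tumours at 0.354 or less. The same 2 tumours were the highest of their group for Col8a2 (0.687 and 0.415). With no filter none of the 21 was called in any comparison, and with ESK981 against vehicle 9 were at an unadjusted p under 0.05 (smallest adjusted p = 0.0620), as were 21% of the 32048 genes of that fit. Col2a1 and Col10a1, collagens of cartilage, peaked at 0.0652 and 0.104 FPKM in any mouse.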

How the data were processed

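The authors deposited 1 table of FPKM per gene and tumour, made with STAR and featureCounts on mm10 per the submitters' processing notes, with versions, annotation, strand setting and filters not given in the sources used here. Multiplied by exon lengths of GENCODE M21 (GRCm38), low values gave whole fragments within 0.01, from which depth was recovered, 9.90e+06 to 3.24e+07 per tumour. Of 48795 gene identifiers 41427 matched that annotation with their version. FPKM scale each library to its total, so a rise of abundant RNA lowers all other values.

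Values of a mouse are means of FPKM over its tumours. For tests, log2(FPKM + 0.5) was averaged per mouse, genes at 0.5 FPKM or more in at least 5 tumours were kept (15846), and all 4 groups were fitted together with limma 3.58.1 in R 4.3.3 (trended prior, Benjamini-Hochberg adjustment over all genes, called under 0.05). The pipeline was tested on simulated data. Members and lists were chosen with earlier results of these data known. Values in every mouse are given for the 8 highest collagens, the called ones and the highest of each class. Of the related and marker lists up to 3 called genes and 17 set genes are named. One marker gene is not reported here. Alternatives were other pseudocounts, filters and scalings, single tumours with the mouse as a random effect with or without flow cell, right flanks only, array weights, and leaving out tumours or each mouse. All 20 mice entered the fits behind the values given without a named exception.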

Additional observations from a re-analysis of the deposited data

Results flagged for a closer look

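In 7 of 92 groups of 5 mice (23 tested collagens in 4 groups) 1 mouse lay far from the other four by Dixon's criterion of 0.71 on the log2(FPKM + 0.5) scale, which chance reaches in about 1 of 20 groups. Vehicle mouse 2 was far above its group for Col5a1 (29.8 FPKM, the others 14.6 to 17.5) and for Col6a5 (2.97, the others 0.218 to 0.398). Its summed fibroblast, skeletal muscle, pericyte and macrophage markers were also the highest of the vehicle mice. Anti-PD-1 mouse 4 was high for Col6a5 (1.57, the others 0.00878 to 0.124), with its signal in tumour 4R. ESK981 mouse 2, with 1 tumour, was high for Col4a5 (11.7, the others 7.33 to 9.75), and ESK981 mouse 3 was low for Col12a1 (4.84, the others 8.99 to 11.1). Vehicle mouse 5, which holds tumour 5R, was low for Col11a2 (3.23, the others 4.73 to 5.55). Anti-PD-1 mouse 5 was high for the weakly expressed Col9a3 (0.708, the others 0.33 to 0.414).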

How the results depend on the processing

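With ESK981 against vehicle 9 collagens were called, and 3 to 10 when each mouse was left out in turn (3 without vehicle mouse 2, 10 without vehicle mouse 5). The count was 4 with no filter on low values, where 32048 genes were tested, and 14 with array weights (13 lower, 1 higher). Col6a5 and Col9a3, which passed the filter mainly through vehicle tumours, were among the 13. With flow cell as a term, a fit in which the median of all genes moved to 0.60 and which hangs on vehicle 5R, it was 5 for ESK981, 5 for anti-PD-1, 5 for the combination against vehicle and 3 for the interaction (Col4a1, Col4a2 and Col8a1, all negative). That term also turned Col7a1 with ESK981 to 0.027 (limma adjusted p = 0.981) and Col18a1 to 0.84 with anti-PD-1 (0.0283) and 0.77 with the combination (0.037). The cause was not tested. Array weights gave 2 calls with anti-PD-1 (Col8a1 higher, Col6a5 lower), 2 with the combination (Col6a1 and Col16a1 lower) and 2 in the interaction. Leaving out the 3 tumours of low depth or much ribosomal RNA, and with them combination mouse 5, gave 2 with anti-PD-1, and median-of-ratios scaling gave 1 with the combination (Col16a1). Both comparisons of the combination with a single agent had no call in any fit. Over single collagens and comparisons, 2657 of the values without 1 mouse kept direction and side of the threshold, 29 lost a call, 6 gained one and 68 uncalled values crossed 0. In the other fits 1553 kept both, 18 lost a call, 38 gained one, 78 uncalled values crossed 0 and 3 turned as given. No paired analysis was possible because the mouse numbers name different animals in each group. Depth limits the low collagens, of which 11 had fewer than 100 fragments in all 33 tumours.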

Other observations

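Of the ratios between chains, that of Col6a1 to Col6a2, partners in the type VI trimer, ran from 2.86 to 5.21 in vehicle mice and from 2.24 to 2.85 in ESK981 mice, with 2.55 to 3.43 for anti-PD-1 and 2.31 to 3.10 for the combination. That of Col1a1 to Col3a1 was 1.92 to 3.33 in vehicle and 1.91 to 3.20 in ESK981 mice. The flank ratios of 4 collagens were largest in anti-PD-1 mouse 4, at 12.7-fold for Col8a1, 9.08-fold for Col12a1, 5.32-fold for Col15a1 and 2.95-fold for Col5a2, where 4R is the library of low depth and much mitochondrial RNA. All of these were looked at after the values were seen and were not tested.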
